A study of Rattus norvegicus with 8 samples.

Results

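The mitochondrial respiratory chain subunits were taken here as the genes whose name on the array starts with Ndufa, Ndufb, Ndufc, Ndufs, Ndufv, Sdha, Sdhb, Sdhc, Sdhd, Uqcr, Cox4 to Cox8 or Atp5. This naming rule, which uses no measured value, found 93 gene names with 115 probes, out of 26204 gene names with 30350 probes. Of the 93 genes, 91 could be tested, and each of these 91 was well above background on all 8 arrays through its brightest probe. Ndufaf2, above background on 2 arrays, and Cox8c, above background on 0 arrays, could not be tested. The rule also takes in 8 assembly factors (Ndufaf1 to Ndufaf7 and Sdhaf2), 5 gene copies or pseudogenes and 3 genes that are no subunits (Cox4nb, Atp5s and Atp5sl), leaving 76 tested structural subunits.

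Ovaries of immature female rats were measured, 4 on arrays labelled control and 4 on arrays labelled PMSG. PMSG, pregnant mare serum gonadotropin, is a hormone preparation that acts mainly like follicle-stimulating hormone and drives ovarian follicles to grow. Both groups consist of female rats injected under the skin at 26 days of age, the first with 0.2 ml albumin phosphate buffer alone and the second with 50 IU PMSG in the same buffer, and the ovaries were removed 48 h later, at 28 days. The labels name no strain and do not say whether a replicate is 1 animal or a pool, so the p-values measure only the spread between these samples, which may be technical.

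The respiratory chain passes electrons from NADH and succinate through complexes I, II, III and IV of the inner mitochondrial membrane to oxygen, and complex V, the ATP synthase, uses the proton gradient that I, III and IV build. Most subunits are encoded in the nucleus, with a core encoded in mitochondrial DNA. In the ovary, steroid-making cells and oocytes are both known for abundant mitochondria, the former because cholesterol side-chain cleavage takes place inside them.

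Every direction here follows the sample labels and would turn if these were exchanged, which was not tested. Genes of steroid-making cells that gonadotropins are generally known to raise were lower in the arrays labelled PMSG: Star, which brings cholesterol into mitochondria, differed by -2.75 and Cyp11a1, the side-chain cleavage enzyme, by -3.36 on the log2 scale. Of the 6 steroidogenic markers 5 were lower, and their summed level (signal relative to each array's 75th percentile) ran from 390 to 447 in the control arrays and from 162 to 256 in the PMSG arrays. All 6 oocyte markers were higher, with summed levels of 2.86 to 5.14 against 9.79 to 21.9. Of the endothelial markers 4 of 6 were lower (19.96 to 23.4 against 15.4 to 17.1), and of the macrophage and leukocyte markers 4 of 5 were higher (6.98 to 8.71 against 11.1 to 12.5). The genes tested as ciliated epithelium markers were Foxj1, Dnah5, Krt8 and Cdh16, of which Krt8 and Cdh16 also mark other epithelia. Of these 3 of 4 were higher (2.74 to 4.42 against 7.35 to 14.5), and Dnah9 and Ovgp1 had no probe under those names. The summed levels of the red blood cell, striated muscle, adipocyte and smooth muscle markers overlapped between the labels. The striated muscle markers Myh1 and Myh2 and the adipocyte marker Elovl3 were below the detection filter, and of the tested markers 4 of 10 for striated muscle were higher and 1 lower (Acta1, -1.82), 2 of 9 for adipocytes were higher, and 1 of 5 for red blood cells and 1 of 9 for smooth muscle and pericytes were lower. These marker levels move with the labels beside every result that follows, and their part in the members' differences was not tested. In whole ovary, fewer cells of a type and less RNA per cell cannot be told apart.

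Levels are given as the log2 signal of a gene's brightest probe minus the 75th percentile of its array, and differences as PMSG minus control on that log2 scale. A difference passed where limma's adjusted p (Benjamini-Hochberg over all 25303 tested probes) was under 0.05. Of the 91 tested members, 23 passed (25.3%), against 34.2% of all tested probes and 34.5% with 1 probe a gene name. They split into 21 lower and 2 higher in the PMSG arrays. Lower calls made up 23.1% of the members, against 16.6% of all tested probes and 23.9% of the 7031 gene names whose mean level lay above 0, most members being among such bright probes. The share of lower members was thus close to that of other bright genes. Higher calls made up 2.20% of the members, against 17.6% of all tested probes and 15.4% of the bright gene names. Some counts below use an unadjusted p under 0.05. At least 34.2% of all tested probes met that limit, since an adjusted p is never the smaller of the pair, but their exact share was not counted.

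Differences were small. They ran from -0.76 for Ndufs1 to 0.48 for Cox7a2l, none reached 2-fold, and 11.8% of all tested probes passed with at least 2-fold. The sign was negative for 66 of 91 members. Their median difference was -0.14, while the median over all tested probes was 0.11 and that of the bright gene names was -0.02, so relative to all tested probes the members' median lay 0.26 lower. Control and PMSG values were fully separate for 33 members (36.3%), of which 30 were lower, beside 36.6% of all tested probes and 37.0% with 1 probe a gene name.

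**Figure D1:**
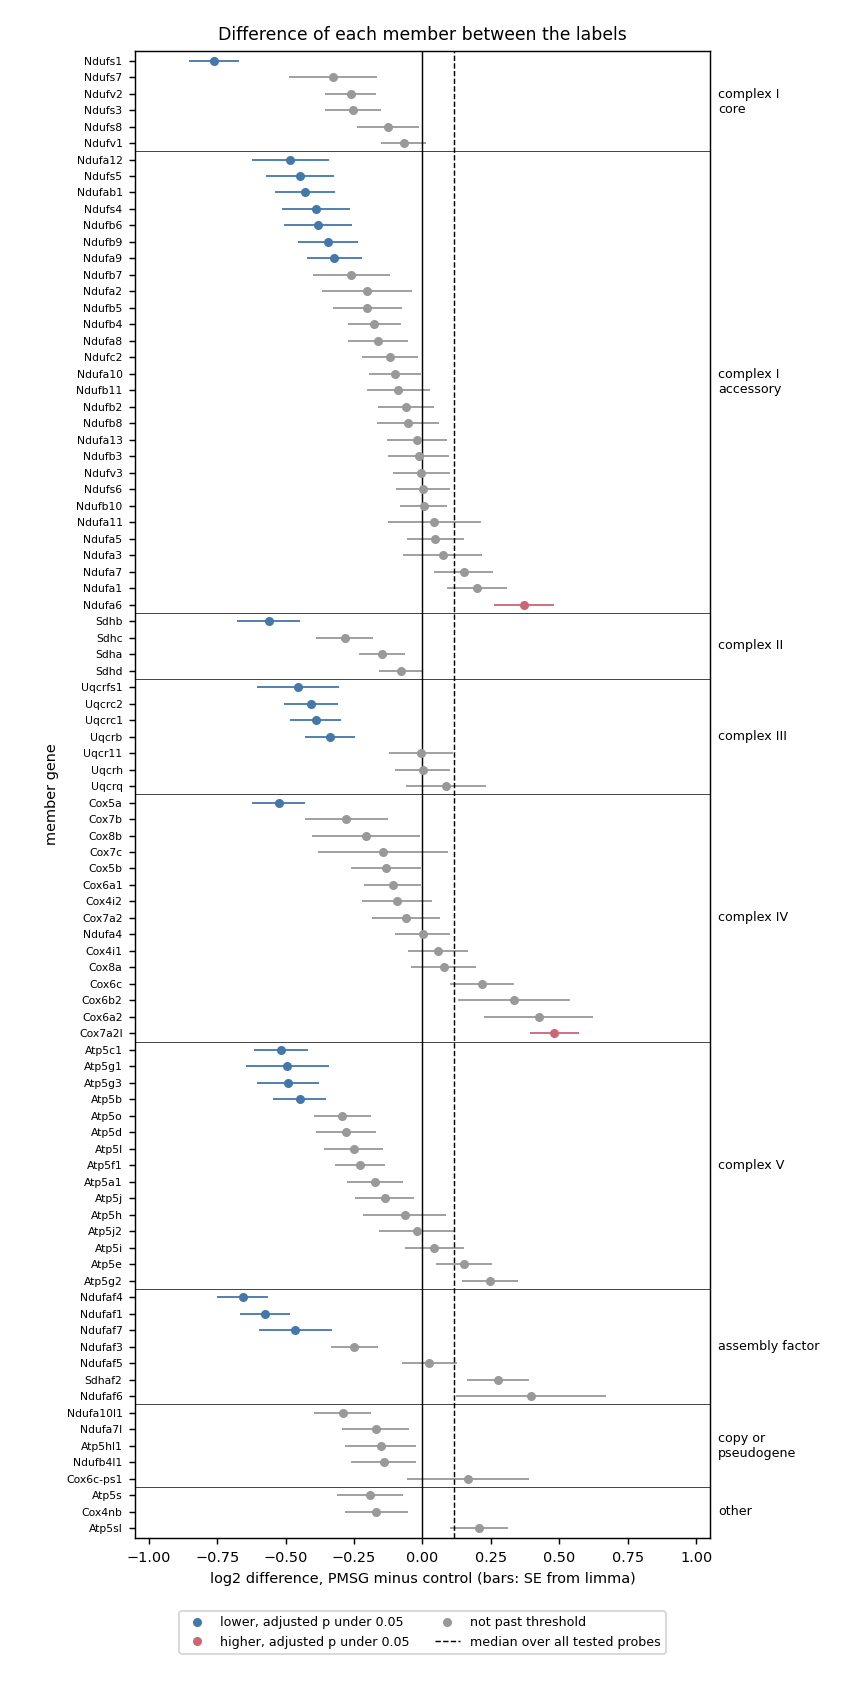
Log2 difference (PMSG minus control) with its standard error from limma for 90 of the 91 tested members, ordered by complex. Blue points are the 21 members called lower, red points the 2 called higher, and the dashed line is the median over all tested probes, 0.11.

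The members' levels differed from array to array, and so did the median over all probes of the deposited log2 values. Those all-probe medians were -3.11, -3.19, -3.08 and -3.21 on control arrays 1 to 4. On PMSG arrays 1 to 4 they were -2.87, -3.05, -2.82 and -3.20. Within the PMSG group their order was that of the members' medians, and a pattern particular to the members was not tested. The median level over the 91 members was 3.96, 3.85, 3.87 and 3.91 on control arrays 1 to 4, and 3.72, 3.58, 3.73 and 3.46 on PMSG arrays 1 to 4. By this median all 4 PMSG arrays lay below all 4 control arrays. The mean level over the same members overlapped, at 3.44, 3.34, 3.36 and 3.34 against 3.30, 3.18, 3.35 and 3.08. Control array 1 gave the highest value of its group for 61 of 91 members, PMSG array 3 the highest of its group for 51, and PMSG array 4 the lowest of its group for 60. Members varied less within a group than all tested probes: the median SD was 0.08 in control and 0.16 in PMSG arrays, against 0.16 and 0.27. Most members had a mean level above 0, as did only 7031 of 21926 gene names, and the spread of probes of like brightness was not compared.

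**Figure D2:**
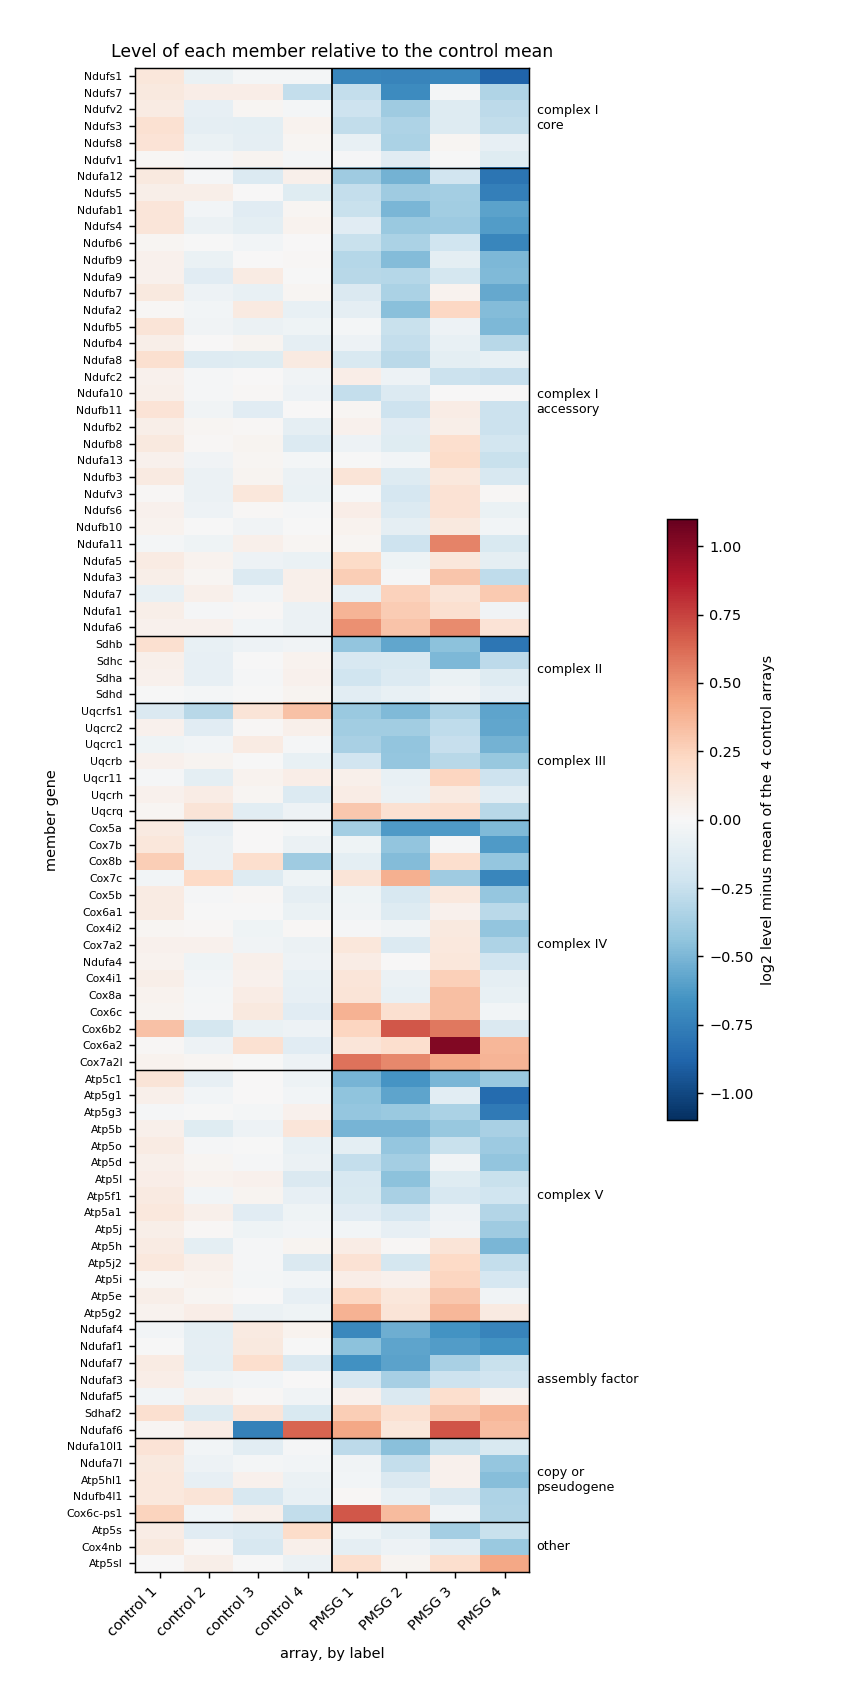
Level of 90 of the 91 tested members (rows, by complex) on each of the 8 arrays (columns), as log2 level minus the mean of the 4 control arrays; blue is below and red above that mean. Ndufs1, Sdhb, Cox5a, Atp5c1 and Ndufaf4 are blue on all 4 PMSG arrays, and PMSG array 4 is the bluest column.

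Many of these calls did not hold with 1 array fewer. Over all tested probes the number passing fell too, from 8658 to 6898, 6733, 7382 and 6552 without control arrays 1 to 4. It was 7120, 7485 and 7925 without PMSG arrays 1 to 3 and rose to 11382 without PMSG array 4. The effect of a smaller group and that of the array left out were not told apart. With 1 array left out the count of lower members fell to 10 without control array 1, 13 without control array 2, 12 without control array 3, 13 without control array 4 and 12 without PMSG array 2, and 10 members stayed lower with each of the 8 arrays left out in turn. The count of higher members was 6 without PMSG array 4, which added Atp5g2, Cox6b2, Cox6c and Ndufa1, and 1, Cox7a2l, with any other single array left out. Centring each array on its median instead of its 75th percentile gave 42 lower and 0 higher members. Of the lower ones 5 were in the core of complex I and 10 in complex V. That scaling shifts the median of all tested probes to -0.05. With it 8448 of the 25303 tested probes passed in either direction, against 8658 with the main scaling. The share of all probes that was lower with it was not counted, so the 42 have no background. Quantile normalization gave 19 lower members, 14 of them among the 21, with 2 in place of 7 accessory subunits of complex I, 2 in place of 4 in complex III, 3 in place of 1 in complex IV and 7 in place of 4 in complex V. With it 9050 of all tested probes passed in either direction, and their split by direction was not counted. The members' median difference was -0.09 without PMSG array 4, and with 1 other array left out it lay between -0.18 and -0.11.

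Complex I, NADH dehydrogenase, takes electrons from NADH. Of its 7 tested core subunits, 1 was lower, 0 were higher, and all 7 differences were negative, with a median of -0.25; 4 were lower at an unadjusted p under 0.05. The core member that passed was Ndufs1, the large iron-sulfur subunit of the electron-input arm. Ndufs1 levels were 2.88, 2.68, 2.73 and 2.73 on the control arrays and 2.03, 2.03, 2.03 and 1.87 on the PMSG arrays. The groups were well apart, and every PMSG value lay below every control value. The difference was -0.76 (SE 0.09, adjusted p = 5.96e-04), or 1.70-fold lower, and it was the largest among the members.

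The other core subunits did not pass. Ndufs7, which carries the last iron-sulfur cluster before ubiquinone, had levels of 2.90, 2.87, 2.87 and 2.53 against 2.53, 2.10, 2.77 and 2.46, a difference of -0.33 (adjusted p = 0.146) with overlapping groups. Ndufv2, an iron-sulfur subunit of the NADH-binding module, differed by -0.26 (adjusted p = 0.0622) and Ndufs3 by -0.25 (0.0857). Both were lower on all 4 PMSG arrays than on any control array, but missed the threshold. Ndufs8, a carrier of 2 iron-sulfur clusters, differed by -0.13 and Ndufv1, the NADH-binding subunit, by -0.07.

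Of the 28 tested accessory subunits of complex I, 7 were lower, 1 was higher and 20 did not pass, with a median difference of -0.09 (-0.06 without control array 1 or PMSG array 4). The lower accessory subunits were Ndufa12 (-0.48), Ndufs5 (-0.45), Ndufab1 (-0.43), Ndufs4 (-0.39), Ndufb6 (-0.38), Ndufb9 (-0.35) and Ndufa9 (-0.32), with adjusted p-values from 0.0180 for Ndufab1 to 0.0466 for Ndufb6. Their count moved with single arrays: it fell to 0 without control array 1, 1 without control array 2, 2 without control array 3, 1 without control array 4, 4 without PMSG array 1, 2 without PMSG array 2 and 4 without PMSG array 4. The higher one was Ndufa6, a small subunit of the matrix arm. Ndufa6 levels were 4.85, 4.84, 4.77 and 4.73 on the control arrays and 5.30, 5.11, 5.32 and 4.95 on the PMSG arrays. The groups did not overlap, and the difference was 0.37 (SE 0.11, adjusted p = 0.0320). The call was lost in 9 of 17 alternatives, among them each array left out except PMSG array 4.

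Ndufab1, the mitochondrial acyl carrier protein, which is both a subunit of complex I and a carrier in fatty acid synthesis, was read by a pair of probes that went opposite ways. The sequence of the brighter one is shown because a probe reports only the transcripts that hold its 60 bases. It lies at chr1:180912828-180912887 on the minus strand of rn4, the rat build named in the file headers.
Ndufab1, brighter probe: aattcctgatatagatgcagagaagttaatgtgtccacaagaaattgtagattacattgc

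The brighter probe of Ndufab1 had levels of 3.49, 3.32, 3.23 and 3.38 on the control arrays and 3.11, 2.85, 2.97 and 2.76 on the PMSG arrays. The dimmer one had -6.08, -5.52, -5.67 and -5.88 against -4.42, -4.84, -4.51 and -4.73. Neither pair of groups overlapped, and the signs were opposite: -0.43 (adjusted p = 0.0180) for the brighter and 1.16 (adjusted p = 9.03e-04) for the dimmer probe. Ndufaf7, a methyltransferase that acts in the assembly of complex I, showed the same split. Its brighter probe aligns to chr6:1720961-1721919 on the plus strand of rn4, a span longer than its 60 bases, and its dimmer one to chr6:1727031-1727090. An annotation of rn4 was not used here, so the exon, intron or UTR each probe falls in is not given.
Ndufaf7, brighter probe: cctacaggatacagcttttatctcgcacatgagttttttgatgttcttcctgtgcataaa
Ndufaf7, dimmer probe, last 30 bases: ataattacttatattattctttgtgctggc

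Levels of the brighter Ndufaf7 probe were -1.08, -1.28, -0.99 and -1.33 on the control arrays and -1.83, -1.76, -1.53 and -1.42 on the PMSG arrays. Those of the dimmer probe were -3.08, -2.91, -3.33 and -3.30 against -2.77, -2.80, -2.83 and -2.58. The brighter probe differed by -0.46 (adjusted p = 0.0278, lost in 5 of 17 alternatives) and the dimmer one by 0.41 (adjusted p = 0.0331). Ndufab1 and Ndufaf7 are the 2 of 19 members with several tested probes where calls opposed each other. In 13 of the 19, all probes had the same call. Ndufv3, an accessory subunit, had 3 probes, of which 1 dim probe was higher (0.36) while the brightest was level (-0.00).

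**Figure D3:**
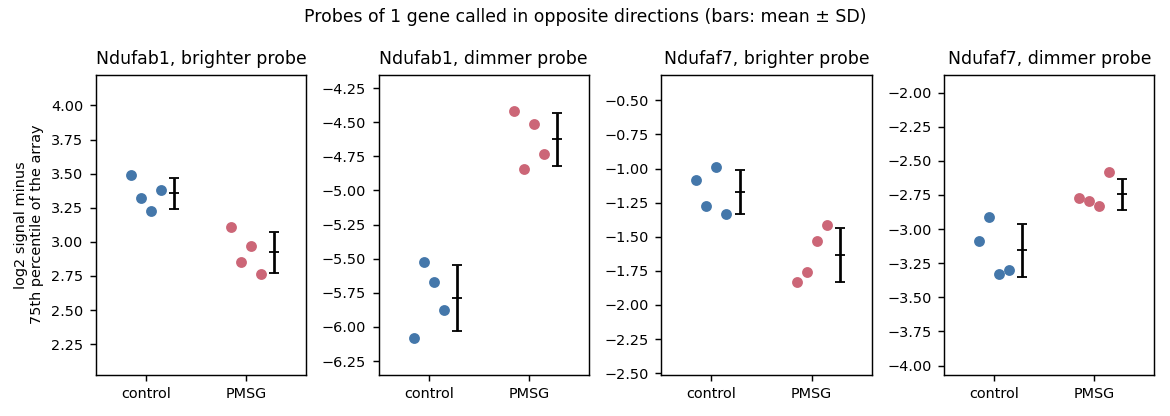
Level per array of both probes of Ndufab1 and both of Ndufaf7 (points, with group mean and SD as bars), as log2 signal minus the 75th percentile of the array. In each gene the brighter probe is lower and the dimmer probe higher on all 4 PMSG arrays.

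Complex II, succinate dehydrogenase, links the respiratory chain to the TCA cycle. Of its 4 subunits 1 was lower and all 4 differences were negative. The iron-sulfur subunit Sdhb passed. Its probe lies at chr5:159839597-159839656 on the plus strand of rn4 and is shown as an example of the reporter behind a called subunit.
Sdhb: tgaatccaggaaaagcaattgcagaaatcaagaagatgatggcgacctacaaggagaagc

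Sdhb levels were 3.80, 3.53, 3.56 and 3.58 on the control arrays and 3.19, 3.04, 3.16 and 2.82 on the PMSG arrays. Every PMSG array lay below every control array, and the difference was -0.56 (SE 0.12, adjusted p = 0.00705), or 1.48-fold lower. The flavoprotein subunit Sdha, which oxidises succinate, differed by -0.15 (adjusted p = 0.209). The membrane anchors Sdhc and Sdhd differed by -0.28 (adjusted p = 0.0673) and -0.08 (adjusted p = 0.442).

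Complex III, the cytochrome bc1 complex, hands electrons from ubiquinol to cytochrome c. Of its 7 tested members 4 were lower, 3 did not pass and the median difference was -0.34. The core proteins Uqcrc1 and Uqcrc2 are structural subunits on the matrix side. Uqcrc1 levels were 3.63, 3.65, 3.77 and 3.66 on the control arrays and 3.33, 3.24, 3.43 and 3.16 on the PMSG arrays, a difference of -0.39 (SE 0.09, adjusted p = 0.0141). Uqcrc2 levels were 3.22, 3.05, 3.19 and 3.23 against 2.79, 2.79, 2.89 and 2.60, a difference of -0.41 (SE 0.10, adjusted p = 0.0143). Neither core protein had overlapping groups.

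The Rieske iron-sulfur protein Uqcrfs1, which takes the first electron from ubiquinol, had levels of 3.64, 3.495, 3.94 and 4.12 against 3.39, 3.32, 3.46 and 3.22. Its control arrays were the more spread of the groups, and its difference of -0.45 (adjusted p = 0.0475) was lost in 12 of 17 alternatives. Uqcrb, a ubiquinone-binding subunit, differed by -0.34 (adjusted p = 0.0224). The small subunits Uqcr11 (-0.01), Uqcrh (0.00) and Uqcrq (0.09) did not pass, with adjusted p-values of 0.666 or more. The count of lower members of complex III was 2 without control array 1, without control array 3 or without PMSG array 2.

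Complex IV, cytochrome c oxidase, reduces oxygen. Of its 15 tested members 1 was lower, 1 was higher and 13 did not pass, with a median difference of -0.06. That median has no firm sign: it was 0.05 without PMSG array 4, with 3 members higher, and -0.12 and -0.03 without PMSG arrays 1 and 2. The lower one was Cox5a, a nuclear-encoded subunit on the matrix side. Cox5a levels were 4.33, 4.15, 4.24 and 4.21 on the control arrays and 3.86, 3.61, 3.61 and 3.75 on the PMSG arrays. The groups were apart and the difference was -0.53 (SE 0.10, adjusted p = 0.00418). Its partner in numbering, Cox5b, a zinc-binding subunit, differed by -0.13 (adjusted p = 0.439).

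Cox7a2l, related to the Cox7a subunits and known as a factor that joins complexes III and IV into supercomplexes, was the member with the largest positive difference. Cox7a2l levels were 5.0, 4.98, 4.96 and 4.90 on the control arrays and 5.56, 5.49, 5.38 and 5.33 on the PMSG arrays. All PMSG values lay above all control values, and the difference was 0.48 (SE 0.09, adjusted p = 0.00428), or 1.40-fold higher. It missed the threshold in 1 of 17 alternatives, median centring of the arrays. Cox4i1, the general form of subunit 4, had levels of 5.83, 5.74, 5.82 and 5.69 against 5.90, 5.70, 6.03 and 5.66. The Cox4i1 groups overlapped, with a difference of 0.06 (adjusted p = 0.708).

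**Figure D4:**
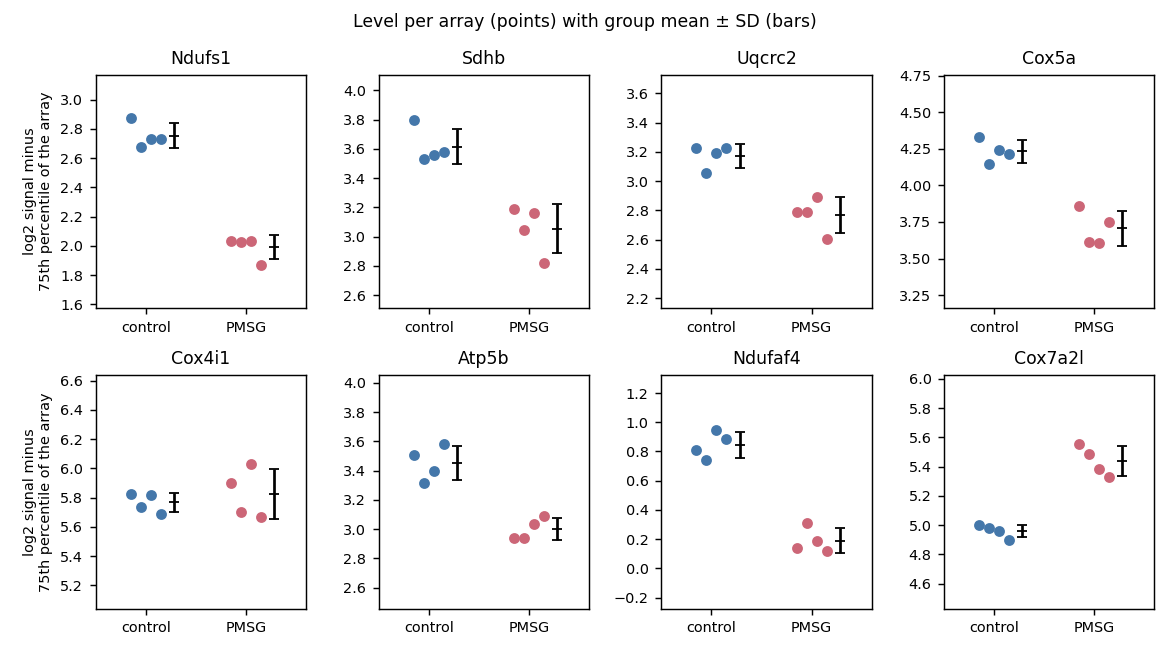
Level per array (points) with group mean and SD (bars) for 8 members, as log2 signal minus the 75th percentile of the array; each panel spans the same number of log2 units. Ndufs1, Sdhb, Uqcrc2, Cox5a, Atp5b and Ndufaf4 are lower on all PMSG arrays, Cox7a2l is higher on all of them, and Cox4i1 overlaps.

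Several complex IV subunits have a general form and a form known from heart, muscle or lung. Of 6 listed pairs 3 could be measured; Cox6b1, Cox7a1 and Ndufa4l2 have no probe under those names. The tissue form minus the general form was compared within each array, with an exact two-sided permutation test whose smallest possible p is 0.0286, adjusted over the 3 pairs. For Cox6a2 over Cox6a1 this difference was -10.22, -10.20, -9.97 and -10.20 on the control arrays and -9.97, -9.82, -9.18 and -9.48 on the PMSG arrays. Only control array 3 reached the range of the PMSG arrays, the shift was 0.53, and the exact p was 0.0571 (adjusted 0.129). Cox8b over Cox8a shifted by -0.28 (exact p = 0.0857, adjusted 0.129) and Cox4i2 over Cox4i1 by -0.15 (exact p = 0.143, adjusted 0.143). With the adjustment a single fully separate pair reaches no less than 0.0857, so 1 pair alone could not pass. Cox8b over Cox8a was -0.09 with normexp and -0.50 with quantile normalization, and Cox4i2 over Cox4i1 was -0.04 with quantile normalization and -0.09 without PMSG array 4. Separately, Cox6a1 differed by -0.11, Cox6a2 by 0.42 (adjusted p = 0.132), Cox7a2 by -0.06, Cox8a by 0.08, Cox8b by -0.21 and Cox4i2 by -0.09, none of which passed.

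Complex V, the ATP synthase, has a catalytic head and a membrane rotor. Of its 15 tested members 4 were lower and 11 did not pass, with a median difference of -0.23. From the head, the catalytic beta subunit Atp5b and the central-stalk gamma subunit Atp5c1 passed. The Atp5b probe lies at chr7:1378451-1378510 on the plus strand of rn4.
Atp5b: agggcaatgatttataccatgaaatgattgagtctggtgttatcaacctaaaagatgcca

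Atp5b levels were 3.51, 3.32, 3.40 and 3.58 on the control arrays and 2.94, 2.94, 3.04 and 3.09 on the PMSG arrays, a difference of -0.45 (SE 0.10, adjusted p = 0.00824). Atp5c1 levels were 3.27, 3.04, 3.13 and 3.08 against 2.62, 2.48, 2.62 and 2.72, a difference of -0.52 (SE 0.10, adjusted p = 0.00450). Both had clearly separate groups. The rotor ring is built of subunit c, a single protein made from 3 genes. Its genes did not move alike: Atp5g1 differed by -0.49 (adjusted p = 0.0368) and Atp5g3 by -0.49 (adjusted p = 0.0116), whereas Atp5g2 differed by 0.25 (adjusted p = 0.0967). Atp5g2 levels were 5.67, 5.70, 5.57 and 5.59 on the control arrays and 6.02, 5.78, 5.998 and 5.73 on the PMSG arrays, without overlap but short of the threshold.

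The remaining head and stalk subunits of complex V missed the threshold. At an unadjusted p under 0.05, a limit that at least 34.2% of all tested probes met, the complex had 8 members lower and 1 higher. The alpha subunit Atp5a1, which alternates with beta in the head, differed by -0.17 (adjusted p = 0.214). The delta subunit Atp5d differed by -0.28 (0.0813), the peripheral-stalk subunit b, Atp5f1, by -0.23 (0.0868) and Atp5o, which joins stalk and head, by -0.29 (0.0591).

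Assembly factors build the complexes without remaining in them. Of the 7 tested that carry a member name, 3 were lower and 0 higher (4 and 1 at an unadjusted p under 0.05), with a median difference of -0.25. Ndufaf4 and Ndufaf1 both act in the assembly of complex I. Ndufaf4 was lower by all 3 of its probes, by 0.66, 0.87 and 0.97 on the log2 scale. Its brightest probe had levels of 0.81, 0.74, 0.95 and 0.88 on the control arrays and 0.14, 0.31, 0.19 and 0.12 on the PMSG arrays, which did not overlap (difference -0.66, SE 0.09, adjusted p = 0.00119). Ndufaf1 levels were -1.38, -1.47, -1.27 and -1.38 against -1.82, -1.96, -1.995 and -2.03, again without overlap (difference -0.57, SE 0.09, adjusted p = 0.00213). Ndufaf3 (-0.25), Ndufaf5 (0.03), Ndufaf6 (0.40) and Sdhaf2 (0.28) did not pass.

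The gene copies and the genes named for other reasons contributed no call: 0 of 5 and 0 of 3 passed in limma at the adjusted threshold, and 1 of 5 (Ndufa10l1, -0.29) and 0 of 3 at an unadjusted p under 0.05. These counts use the brightest probe: the dimmer probe of Ndufa10l1 was lower (-0.44, adjusted p = 0.0163). Of the 91 brightest probes, 5 share at least 25 bases with probes of other names (Ndufa2, Ndufb4, Uqcrb, Ndufa13 and Atp5g1), so their signal may include near-identical copies. The probe that shares bases with Atp5g1 differed by -0.44, and both that share with Uqcrb by -0.36, which are the signs of the members themselves.

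Promoters were searched for the binding letters of factors known for respiratory genes, nuclear respiratory factor 1 (NRF1, the 10 letters in capitals in the Ndufaf4 sequence, which read the same on both strands) and ETS proteins such as GABPA (CCGGAAGT), on both strands from 250 bases before to 50 after the RefSeq start in the assembly GRCr8. Of the 93 members, 92 matched a RefSeq gene and 78 had a promoter entry. The NRF1 letters were in 6 of 78 member promoters (7.69%) and in 0.932% of the 27457 promoters of the table, the ETS letters in 8 of 78 (10.3%) and in 4.01%. No member promoter held both. Among the members called lower that had an entry, 1 of 19 held each motif, against 5 and 7 of the 55 that did not pass. The 60 bases around the motif, in capitals, are shown for both lower members that hold one and for Atp5o and Cox8a, which did not pass; the first lies at chr5:43401612-43401671 (plus strand), the second at chr9:72073772-72073831 (minus), the third at chr11:44657508-44657567 (minus) and the last at chr1:213833648-213833707 (minus), all in GRCr8.
Ndufaf4, NRF1 letters starting 158 bases before the start: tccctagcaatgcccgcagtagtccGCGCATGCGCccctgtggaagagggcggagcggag
Ndufs1, ETS letters on the reverse strand starting 200 bases before the start: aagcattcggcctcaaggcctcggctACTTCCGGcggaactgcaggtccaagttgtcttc
Atp5o, NRF1 letters starting 59 bases before the start: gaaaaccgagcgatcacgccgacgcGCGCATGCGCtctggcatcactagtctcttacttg
Cox8a, ETS letters on the reverse strand starting 58 bases before the start: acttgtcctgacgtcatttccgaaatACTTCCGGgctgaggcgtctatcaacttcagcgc

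Other mitochondrial genes were listed for comparison, each by its brightest probe in the same fit. The TCA cycle, which supplies the chain with NADH and succinate, had 9 of 13 tested genes lower and 1 higher, with a median difference of -0.68. Its largest differences among genes that passed were those of Mdh2 (-1.03, adjusted p = 5.25e-04), which makes oxaloacetate, and Dld (-0.998, adjusted p = 1.87e-04), a shared subunit of the matrix dehydrogenases. Mdh2 levels were 2.12, 2.01, 2.04 and 2.01 on the control arrays and 0.96, 0.78, 1.04 and 1.29 on the PMSG arrays, far outside each other's range. Idh2, the NADP-dependent isocitrate dehydrogenase, went the other way (0.57, adjusted p = 0.00168). The TCA counts stayed at 9 and 1 with each of the 8 arrays left out in turn. Scaling moved the counts of the other lists more: median centring gave 32 of 69 lower and 0 higher in the mitochondrial ribosome, 6 of 16 and 3 in the carriers and 12 of 29 and 0 in the assembly factors, and quantile normalization gave 16 and 5 in the ribosome. With the main scaling, lower calls made up 69.2% of the TCA genes, beside 23.1% of the members (median -0.14). They made up 31.0% of these assembly factors, 24.6% of the ribosome and 18.8% of the electron carriers. With median centring 42 of the 91 members were lower, beside 8448 of the 25303 tested probes passing in either direction. The lower share of all probes was not counted for that scaling. The lists were not tested against each other.

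The list of import proteins, porins and inner membrane carriers also held chaperones, prohibitins, Immt and fusion and fission proteins. It had 18 of 33 genes lower and 0 higher (21 and 0 at an unadjusted p under 0.05), with a median of -0.38. The chaperone Hspd1 (-1.18) and the fusion protein Opa1 (-1.002) led this list. The mitochondrial ribosome, which translates the subunits encoded in mitochondrial DNA, had 17 of 69 lower and 1 higher (Mrpl52, 0.32), with a median of -0.17. Mrpl49 (-0.78) and Mrps12 (-0.62) differed most among the genes that passed. Its lower count was 10 without control array 1 and 11 without control array 2, 3 or 4 or PMSG array 2, and Mrpl52 no longer passed without control array 1, 2, 3 or 4 or PMSG array 1 or 2.

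Electron carriers and coenzyme Q genes went both ways, 3 of 16 lower and 3 higher, with a median of -0.11. The 3 higher include Cyct, which was not above background on the control arrays. With only probes well above background on all arrays, 4 of 15 were lower and 2 higher. Etfdh (-0.74) and Etfa (-0.70), which pass electrons from fatty acid oxidation to ubiquinone, were lower. Adck3, a kinase-like protein of coenzyme Q synthesis, was higher (1.07, adjusted p = 0.00226). Cyct, the testis form of cytochrome c, was well above background on 4 PMSG and 0 control arrays. It was thus tested only through the PMSG arrays. Its adjusted p in limma (0.0327, lost in 8 of the 16 alternatives that tested it) sets their signal against control background. Only a bound holds, at least 1.37-fold higher in the PMSG arrays, and that p does not measure it. That bound sets the mean of the PMSG arrays against, on each control array, the higher of the lowest signal well above background and the probe's own.

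Assembly factors under other names had 9 of 29 lower and 3 higher, with a median of -0.21. Tmem70 (-0.78), an assembly factor of complex V, and Cox20 (-0.64), one of complex IV, were lower, and Nubpl (0.58) and Lyrm7 (0.42), which serve iron-sulfur insertion in complexes I and III, were higher. The lower count was 5 without control array 1 or 4, and the higher count 1 without control array 1 or 4 or PMSG array 1. Lyrm7 was lost in 11 of 17 alternatives, Nubpl in 1 (median centring) and Cox20 in 1 (normexp background correction, -0.16, adjusted p = 0.211). Regulators of mitochondrial biogenesis had 5 of 15 lower and 0 higher (5 and 2 at an unadjusted p under 0.05), with a median of -0.08 that was -0.02 without control array 2 and -0.13 without control array 3. Tfb1m (-1.21), which methylates mitochondrial ribosomal RNA, and Esrra (-0.72), a nuclear receptor that activates respiratory genes, differed most among those that passed, and Ppargc1a was below the detection filter. The list named subunits under other names held 5 tested genes, Cyc1, Usmg5, Atpif1, Higd1a and Higd2a, not all of them subunits. Of these Higd1a (-0.58) and Cyc1, cytochrome c1 of complex III (-0.31), passed with all arrays. By limma's adjusted p the lower count of this list was 0 when any 1 control array was left out and 1 without PMSG array 1, 2 or 3, and Higd1a was lost in 8 and Cyc1 in 6 of 17 alternatives. At an unadjusted p under 0.05 the list had 2 lower and 0 higher. Probes named for the subunits encoded in mitochondrial DNA were not found by the names searched.

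**Figure D5:**
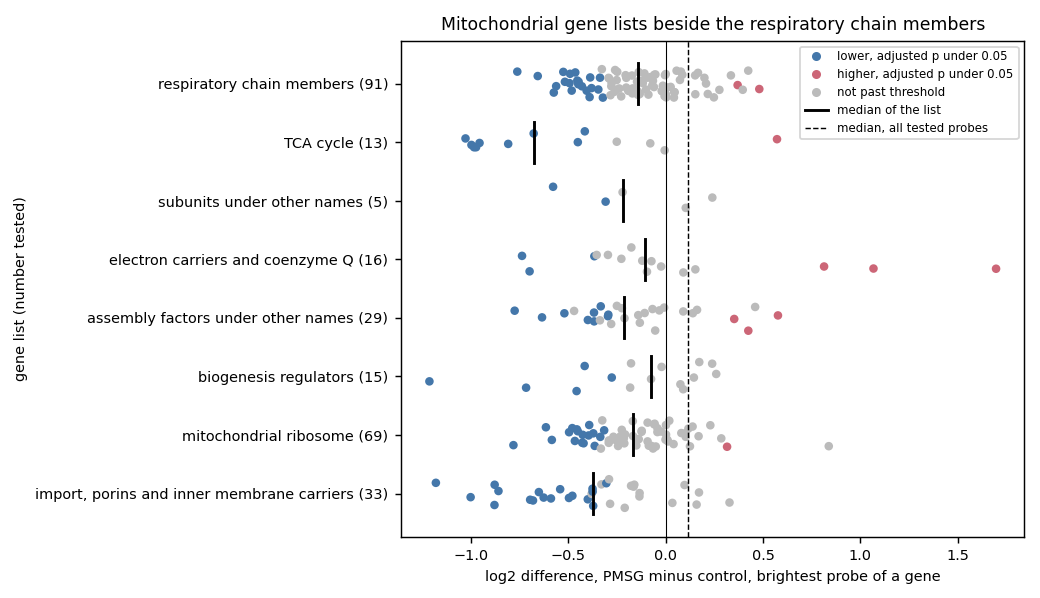
Log2 difference (PMSG minus control) of each tested gene in the respiratory chain members and in 7 other mitochondrial lists; points are genes, thick lines list medians, and the dashed line the median over all tested probes, 0.11. The TCA cycle has the lowest median, -0.68, and the members lie at -0.14.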

How the data were processed

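Ovary RNA was measured on 1-colour Agilent rat 8x60k arrays. Per the file headers, Agilent Feature Extraction 11.5.1.1 gave the deposited spot intensity (processed signal), with coordinates on rn4. A further deposited table holds log2 values; set against the scanner files, these proved scaled to the 75th percentile of their array and not centred, and were used as an alternative. Control and outlier spots were left out, spots of a probe averaged on the log2 scale, and each array's 75th percentile subtracted. A probe was tested where at least 0.5 of its spots were well above background on at least 4 of 8 arrays. No spot was saturated. Groups came from the sample titles and entered limma 3.58.1 (R 4.3.3) as the sole factor. The fit was run on simulated independent values with a known change larger than any member's difference. It therefore does not show how well differences of the members' size are found. The 4 arrays per group limit precision. Promoters are RefSeq's (GRCr8), matched by accession, symbol or synonym.

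The members, the lists and the markers were chosen with earlier results of these data known. Genes named are the core subunits, the 6 largest called differences in each direction (2 were higher), isoform pairs, members with opposing or untested probes, and the 2 largest called in each direction per list. Members named beyond these were chosen after their values were seen, as was the comparison with gene names of mean level above 0. All 8 arrays share 1 slide and 1 scan time. A member among the tested ones is counted but not reported here by name.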

Additional observations from a re-analysis of the deposited data

Results flagged for a closer look

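Of 110 groups of 4 arrays examined among the named genes, 7 held an array whose gap to its nearest neighbour took up more of the group's range than Dixon's limit for 4 samples; about 1 in 20, or 5.5 groups, would do so by chance. Among the members, PMSG array 4 lay below the other PMSG arrays for Ndufs1 (gap ratio 0.942), whose adjusted p went from 5.96e-04 to 0.00114 without it. Control array 1 lay above the others for Sdhb (0.832), whose adjusted p was 0.0235 without it. Control array 4 lay below the others for Ndufs7 (0.908) and control array 3 for Cox4i2 (0.879), and neither gene passed with or without that array. Among the listed genes, PMSG array 4 was low for Cyct (0.951), control array 1 high for Dld (0.933) and control array 2 low for Etfa (0.865). Dld and Etfa passed with and without that array. So did Cyct, whose control signals were not well above background.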

How the results depend on the processing

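For the 55 genes that the rule for genes to be named selects, up to 17 alternatives were run one by one, and none reversed a called direction. Lower in every one were 8 members: Atp5b, Atp5c1, Atp5g3, Cox5a, Ndufaf1, Ndufaf4, Ndufs1 and Sdhb. Leaving out 1 array at a time gave 10 to 21 lower and 1 to 6 higher members, against 21 and 2, and medians of -0.18 to -0.09. Median centring gave 42 lower and 0 higher members and a median of -0.31. With it 8448 of all tested probes passed in either direction, against 8658 in the main setting, and their split by direction was not counted. By complex, the median moved over 1.5 times in several settings. With quantile normalization it did so in the core (-0.14) and accessory (-0.04) subunits of complex I, complex II (-0.09) and complex IV (-0.03). With median centring it did so in the core (-0.42) and accessory (-0.26) subunits, complexes II (-0.38), IV (-0.23) and V (-0.40). Array weights moved it as far in the accessory subunits (-0.06) and complex IV (-0.0002), and normexp in complex IV (-0.01). Shifts with 1 array left out are given above. Quantile normalization and array weights each gave 4 higher members. The replicate number as a block gave 11 lower and 1 higher. Deviations of same-numbered arrays correlated at 0.04, 0.04, 0.18 and -0.02. Arrays of different numbers were not compared, so whether equal numbers mark a pairing was not settled. Other alternatives (normexp, both filters, the deposited values, slide row as a block, the mean over a gene's probes, structural subunits alone) gave 16 to 24 lower and 2 to 3 higher. The cause of these shifts was not tested. Relative to all tested probes the members' median was -0.26 with the 75th percentile or median centring and -0.13 with quantile normalization. A slide or scan block could not be fitted, since all arrays share both. The 91 tested members were well above background on all 8 arrays, but the values of dim ones could still move with the background correction. Cox8b over Cox8a, for example, was -0.28 in the main setting and -0.09 with normexp.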
